A study of Mus musculus with 4 samples.

Results

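Dusp6, Spry2, Spry4, Etv4, Etv5 and Egr1 are genes that respond to FGF and MEK signalling, and their histone marks were examined in mouse cells in which MEK was blocked. Each gene was represented by a fixed window on mouse build mm9, 20 to 80 kb long, and all regions overlapping that window by at least 1 bp in 4 deposited lists were taken as its regions. This gave 33 of 76945 regions: 11 of 25241 H3K4me3 regions and 6 of 14575 H3K27me3 regions in the line CGR8, and 10 of 24618 and 6 of 12511 in the line R1. All 6 genes had at least 1 region, and no filter on low values was applied. Regions are given by window, since the gene annotation used here is on another build, and a region of a window can belong to a neighbouring gene. The nearest protein-coding neighbours in the RefSeq gene order were Poc1b and Csl for Dusp6, Ndfip2 and Trim52 for Spry2, Ndfip1 and Arhgap26 for Spry4, Dhx8 and Meox1 for Etv4, Tra2b and Dgkg for Etv5, and Reep2 and Etf1 for Egr1.

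The cells were rosette stem cells, pluripotent cells placed between the naive and primed states, and both marks were measured by chromatin immunoprecipitation and sequencing. They were made from embryonic stem cells of the lines CGR8 (strain 129/Ola) and R1 (strain 129). Both lines had been kept for 8 days in N2B27 medium with LIF on plates coated with gelatin and serum. The medium held 2 µM IWP2, a compound that stops cells from secreting WNT ligands, and 1 µM PD325901, the compound that inhibits MEK. The H3K27me3 group and the H3K4me3 group each held 1 library of CGR8 and 1 of R1, so n = 2 lines for each mark and no library was repeated within a line. All 4 libraries came from cells with the inhibitor, and no library of untreated cells was analysed here, so an effect of MEK inhibition cannot be told apart from the state of the cells. Lists of regions give no RNA levels, so neither the activity of the genes nor markers of the cell type could be checked.

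FGF receptors pass their signal through RAS and RAF to the kinases MEK and ERK, and ERK then switches on a small set of genes. Some of these are brakes on the pathway itself: DUSP6 is a phosphatase that removes the activating phosphates of ERK, and the Sprouty proteins SPRY2 and SPRY4 restrain signalling upstream of ERK. Others are transcription factors that carry the response further: ETV4 and ETV5 belong to the PEA3 group of ETS factors, and EGR1 is an immediate early zinc finger factor. In mouse pluripotent cells this pathway drives the exit from the naive state, and MEK inhibitors are used to hold cells back from it. H3K4me3 is typical of promoters, both of active genes and of silent ones held in readiness, while H3K27me3 is deposited by Polycomb repressive complex 2. Places called for both marks are termed bivalent, although lists made from many cells cannot tell whether single cells carried both.

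The genes fell into 3 arrangements, and both lines showed the same one at each gene. Strong and moderate refer here to the score of a region, which also grows with its width. Spry4 and Etv4 had moderate H3K4me3 lying wholly inside a broad, high-ranking H3K27me3 region. Spry2 and Egr1 had strong H3K4me3 of which 52.4% to 60.6% was covered by an H3K27me3 region at one end. Dusp6 and Etv5 had strong H3K4me3 and no overlapping H3K27me3. The H3K4me3 region of highest score thus overlapped H3K27me3 at 4 of 6 genes in CGR8 and at the same 4 in R1. Of all H3K4me3 regions in the lists, 28.2% in CGR8 and 29.1% in R1 did so. The shares of all regions lying wholly inside H3K27me3, or partly covered by it, were not counted. Counting every region, 5 of the 11 H3K4me3 regions of CGR8 (45.5%) and 5 of the 10 of R1 (50%) overlapped H3K27me3. The mean share of the lines was 47.7% ± 3.21 (SD, n = 2). With 6 genes that were chosen, this is a description and no test was made.

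**Figure D1:**
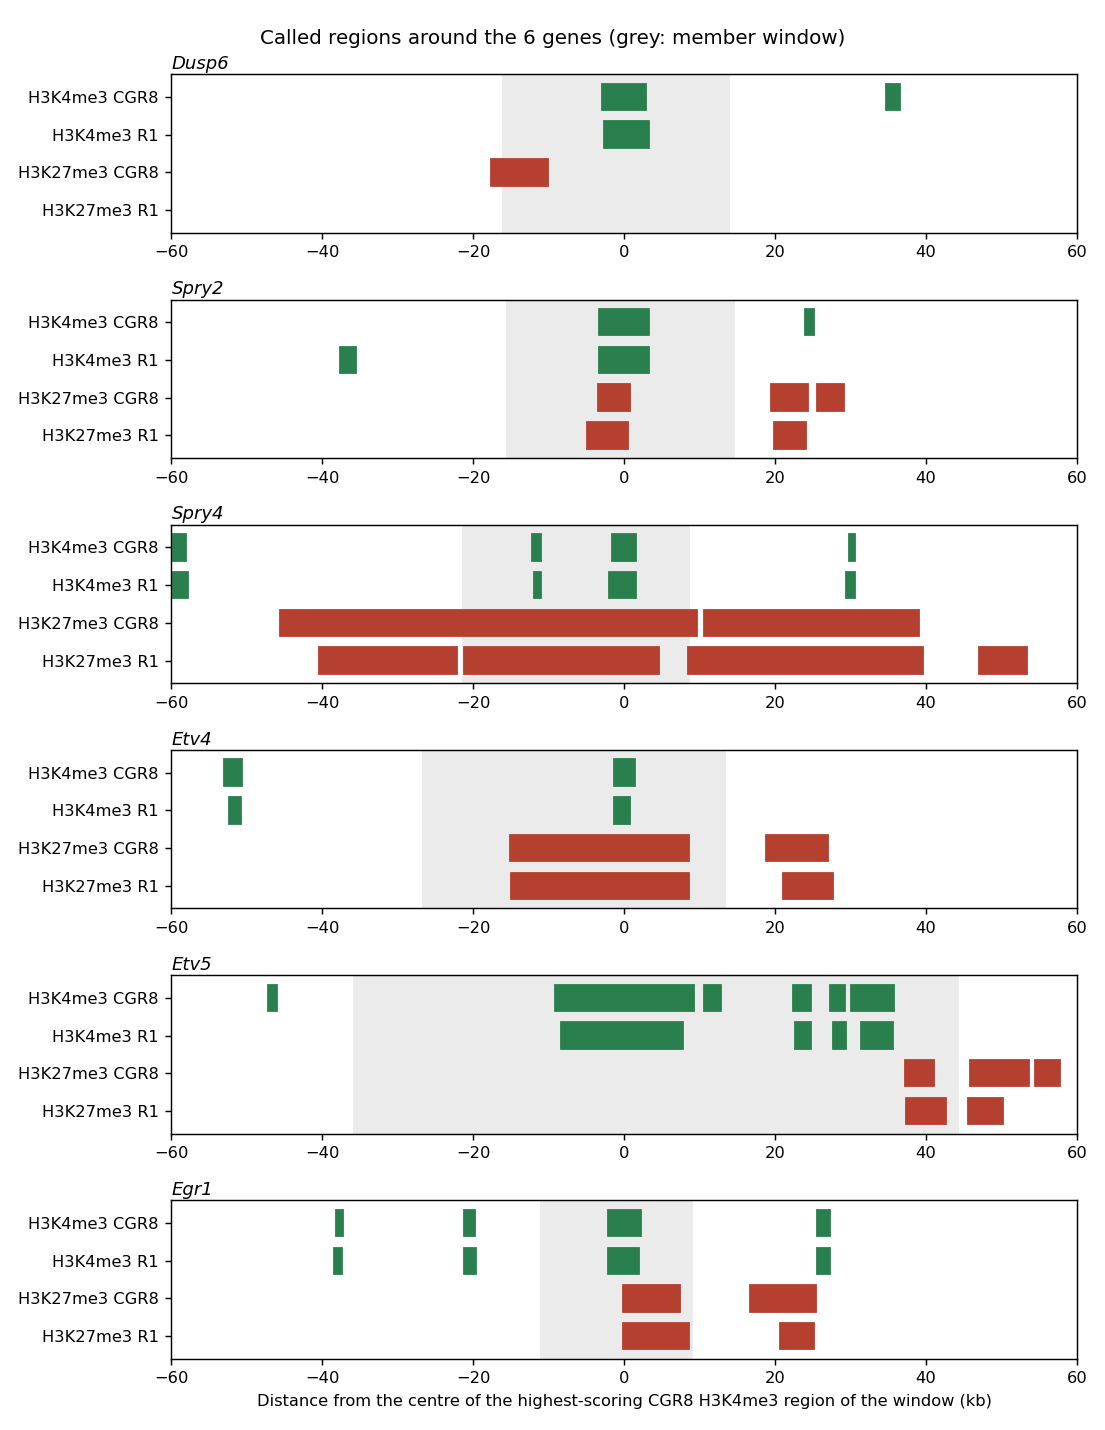
Called regions around each gene, by mark and line. The x axis is the distance in kb from the centre of the highest-scoring CGR8 H3K4me3 region of the window, each bar is 1 called region (green H3K4me3, red H3K27me3) and the grey band is the window. Green bars lie inside red ones at Spry4 and Etv4, are partly overlapped by them from one end at Spry2 and Egr1, and lie apart from them at Dusp6 and Etv5.

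Dusp6, Spry2 and Etv5 were the genes whose highest-scoring H3K4me3 region stood among the top 10% of its list by score in both lines, and their promoter sequences are printed here. Of the top 10% of all H3K4me3 regions, 9.75% in CGR8 and 12.1% in R1 overlapped H3K27me3, and among these 3 genes Spry2 did. The score is the authors' value for a called region, larger for stronger enrichment. It also grows with the width of a region, and it was used for ranks within a list, as such or per kb, and to estimate relative depth. The table of RefSeq promoters (build GRCm38.p6) was searched for all 6 genes and matched 3 of them, with 1 entry for Dusp6, 1 for Spry2 and 2 for Etv5. Spry4, Etv4 and Egr1 were not matched. Each is given here as the 250 bases before the annotated start, 5′ to 3′ along the gene, in lower case with CpG dinucleotides in capitals. The entries lie at chr10:99262981-99263230 on the plus strand (Dusp6), chr14:105896820-105897069 on the minus strand (Spry2), and chr16:22439571-22439820 and chr16:22438369-22438618 on the minus strand (Etv5, first and second). These positions are on GRCm38.p6 and cannot be set against the mm9 positions of the regions. A printed promoter is thus not shown to lie in the top 10% region of its gene. For Etv5 it cannot, if the gene of 58.3 kb lies wholly in its 80 kb window. The other strong H3K4me3 region of Etv5 can then lie at the start of the gene. It stood below the top 10%, at percentile 86.8 in CGR8 and 87.1 in R1.
Dusp6: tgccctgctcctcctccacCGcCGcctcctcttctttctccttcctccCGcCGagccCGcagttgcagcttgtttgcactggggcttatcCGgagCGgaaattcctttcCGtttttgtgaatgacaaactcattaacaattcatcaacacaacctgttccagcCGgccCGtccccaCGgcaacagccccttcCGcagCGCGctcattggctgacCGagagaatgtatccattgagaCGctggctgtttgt
Spry2: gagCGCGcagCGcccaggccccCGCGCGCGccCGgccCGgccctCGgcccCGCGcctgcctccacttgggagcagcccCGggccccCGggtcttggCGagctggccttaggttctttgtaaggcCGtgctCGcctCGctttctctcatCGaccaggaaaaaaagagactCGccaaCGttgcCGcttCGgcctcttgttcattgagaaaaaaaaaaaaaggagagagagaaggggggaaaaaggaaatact
Etv5 first: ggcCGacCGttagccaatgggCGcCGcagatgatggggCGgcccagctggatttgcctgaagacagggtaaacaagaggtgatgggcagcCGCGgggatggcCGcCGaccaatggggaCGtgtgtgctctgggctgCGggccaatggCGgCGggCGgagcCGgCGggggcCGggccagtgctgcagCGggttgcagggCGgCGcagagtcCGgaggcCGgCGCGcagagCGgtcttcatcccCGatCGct
Etv5 second: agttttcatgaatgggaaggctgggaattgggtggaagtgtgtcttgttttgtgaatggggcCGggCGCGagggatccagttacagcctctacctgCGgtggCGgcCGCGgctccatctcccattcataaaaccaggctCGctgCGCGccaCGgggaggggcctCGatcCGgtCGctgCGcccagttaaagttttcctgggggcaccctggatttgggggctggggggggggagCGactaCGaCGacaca
All 4 are rich in CpG, a feature of promoters that commonly carry H3K4me3. They held 16 CpG (Dusp6), 23 (Spry2), 27 (Etv5 first) and 18 (Etv5 second), against a median of 6 over the 32851 promoters of the table. Of those promoters, 74.6%, 86.7%, 91.4% and 78.3% had fewer. The G and C content was 56.4%, 62.4%, 71.2% and 62.0%, against a median of 52.4%. The ETS motif CCGGAA, searched on both strands, was in 12.0% of all promoters of this length and in 0 of these 4. Shorter ETS sites such as GGAA were not counted. The Egr motif GCGTGGGCG, on both strands, was in 0.536% of all promoters, and the CArG box of serum response factor was in 1.47%, and 0 of the 4 held either. That says only that these letters are not in these windows.

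Dusp6 carried a single H3K4me3 region in each line. It ran on chromosome 10 from 98723201 to 98729000 in CGR8 (5.8 kb, score 2901) and from 98723401 to 98729400 in R1 (6.0 kb, score 2467). It ranked 1543 by score in CGR8 and 1987 in R1, that is at percentile 93.9 and 91.9, where the percentile is the percent of the list with a lower score. It was also wide, at width percentile 96.5 and 97.4, and longer than the gene itself, which measures 4.26 kb in RefSeq. H3K27me3 was called near Dusp6 in CGR8 alone. That region ran from 98708401 to 98716000 (7.6 kb, score 137, percentile 52.2), 7.2 kb from the H3K4me3 region and partly outside the window. In R1 the nearest H3K27me3 region lay 148.6 kb away. The CGR8 region was a middling one of its list, and 67.1% of all CGR8 H3K27me3 regions overlapped one of R1. Among CGR8 H3K4me3 regions without overlap, 15.1% lay within 10 kb of H3K27me3, as that of Dusp6 did, and 14.5% of those of R1.

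Spry2 had the same H3K4me3 bounds in both lines, from 106292201 to 106298800 on chromosome 14 (6.6 kb). The score was 2815 in CGR8 (rank 1643, percentile 93.5) and 2915 in R1 (rank 1294, percentile 94.7), the highest percentile of any member region for this mark in R1. The H3K27me3 region there was narrower than the median of its list and stood below the middle of it by score in both lines, though at percentile 60.5 in CGR8 and 50 in R1 by score per kb. It ran from 106292001 to 106296200 in CGR8 (4.2 kb, score 96.1, percentile 29.3) and from 106290601 to 106296000 in R1 (5.4 kb, score 111, percentile 47.9). It covered 4.0 kb (60.6%) of the H3K4me3 region in CGR8 and 3.8 kb (57.6%) in R1, from the end with the lower coordinates. The other end was free of it for 2.6 kb and 2.8 kb. Spry2 is on the minus strand, so the covered end points in the direction of transcription. Of the CGR8 H3K4me3 regions within 2.5 percentile points of its score, 11.6% overlapped H3K27me3, and 12.8% of those of R1.

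Spry4 showed the reverse balance, with broad H3K27me3 and much weaker H3K4me3. The H3K27me3 region of CGR8 ran from 38715801 to 38771000 on chromosome 18 (55.2 kb, score 2434). It ranked 111 by score and 25 by width among 14575 regions. In R1 the window met 2 regions, from 38740201 to 38766000 (25.8 kb, score 1044, rank 393) and from 38769801 to 38801000 (31.2 kb, score 1245, rank 290), 3.8 kb apart. With calls up to 5 kb apart joined, a rule chosen after the calls were seen, the stretch ran from 38715801 to 38800400 in CGR8 (84.6 kb in 2 calls) and from 38721001 to 38801000 in R1 (80.0 kb in 3 calls). The widths and ranks of the single calls therefore depend on where each list was split, and 81.9% of the CGR8 region was covered by R1 regions. The gene itself measures 15.1 kb in RefSeq.

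The 2 H3K4me3 regions of the Spry4 window lay inside these H3K27me3 regions in full. The stronger ran from 38759801 to 38763000 in CGR8 (3.2 kb, score 482, percentile 55.6) and from 38759401 to 38763000 in R1 (3.6 kb, score 771, percentile 63.0). The weaker ran from 38749201 to 38750400 in CGR8 (1.2 kb, score 57.4, percentile 14.1) and from 38749401 to 38750400 in R1 (1.0 kb, score 77.8, percentile 22.8). Both stood higher in the R1 list, by 7.45 and 8.64 percentile points, and 81.8% and 85.5% of the 21972 H3K4me3 pairs between the lines differed by less. H3K27me3 extended beyond the stronger region by 44.0 kb on one side and 8.0 kb on the other in CGR8, and by 19.2 kb and 3.0 kb in R1. Overlap was frequent among H3K4me3 regions of that score, at 45.0% of those within 2.5 percentile points in CGR8 and 40.9% in R1. It was the rule among H3K27me3 regions of like score. Of these, 96.0% overlapped H3K4me3 for the CGR8 region, and 96.6% and 97.5% for the 2 regions of R1.

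Etv4 resembled Spry4 and was the gene with the closest match between lines for H3K27me3. Its H3K27me3 region ran from 101631401 to 101655200 on chromosome 11 in CGR8 (23.8 kb, score 992) and from 101631601 to 101655200 in R1 (23.6 kb, score 1052). It ranked 537 and 387 by score, percentile 96.3 and 96.9. The bounds differed by 200 bp at one end and by 0 bp at the other, and 1.86% of the 8167 H3K27me3 pairs between the lines differed by less. The H3K4me3 region inside it ran from 101645201 to 101648000 in CGR8 (2.8 kb, score 639, percentile 60.3) and to 101647400 in R1 (2.2 kb, score 697, percentile 60.9). H3K27me3 extended beyond it by 13.8 kb and 7.2 kb in CGR8, and by 13.6 kb and 7.8 kb in R1. The H3K27me3 region was longer than the gene, which measures 15.6 kb in RefSeq. Of H3K27me3 regions within 2.5 percentile points of its score, 93.1% in CGR8 and 96.6% in R1 overlapped H3K4me3. Of H3K4me3 regions as close in score to that of Etv4, 41.2% in CGR8 and 41.0% in R1 overlapped H3K27me3.

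Etv5, the close relative of Etv4, was the opposite case by score and overlap, and held the widest H3K4me3 of the set. A region from 22396601 to 22415000 on chromosome 16 in CGR8 (18.4 kb, score 2977) ranked 6 by width among 25241 regions. Its R1 counterpart, from 22397401 to 22413600 (16.2 kb, score 2723), ranked 4 among 24618. By score it stood at percentile 94.2 and 93.7. Per kb the score was 162 in CGR8 and 168 in R1, percentile 48.0 and 47.1 of this measure, so the region stood out by its width and not by its density. By this measure the H3K4me3 region of Etv4 ranked higher, at percentile 54.9 in CGR8 and 60.5 in R1. The stronger one of Spry4 ranked close to that of Etv5, at 46.7 and 51.5. A further strong region lay from 22435801 to 22441600 in CGR8 (5.8 kb, score 2001, percentile 86.8) and from 22437201 to 22441400 in R1 (4.2 kb, score 1979, percentile 87.1). No annotation on mm9 was used here, so neither was placed at a start of Etv5 directly. The gene is on the minus strand and measures 58.3 kb in RefSeq. If it lies wholly in its 80 kb window, its start is beyond the higher end of the 18.4 kb and 16.2 kb regions. Of the 2 strong regions, only the one of 5.8 kb in CGR8 and 4.2 kb in R1 can then lie there.

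Weaker H3K4me3 regions lay between these in the 80 kb window of Etv5. One from 22428201 to 22430600 in CGR8 (score 193) had its counterpart from 22428401 in R1 (score 188), at percentile 41.5 and 40.0. Another from 22433001 to 22435000 in CGR8 (score 46.4) and from 22433401 to 22435200 in R1 (score 43.2) stood near the lower limit of the lists, at percentile 7.06 and 5.54. The last, from 22416401 to 22418600 (score 57.1, percentile 14.0), was called in CGR8 alone.

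H3K27me3 came close to Etv5 without touching its H3K4me3. The region ran from 22443001 to 22446800 in CGR8 (3.8 kb, score 129.5, percentile 49.0) and from 22443201 to 22448400 in R1 (5.2 kb, score 70.9, percentile 18.2). The gap to the nearest H3K4me3 region was 1.4 kb in CGR8 and 1.8 kb in R1, and to the 18.4 kb and 16.2 kb regions it was 28.0 kb and 29.6 kb. The score percentile of the H3K27me3 region differed by 30.8 points between the lines, and 89.1% of H3K27me3 pairs differed by less. By score per kb that region stood at percentile 80.3 in CGR8 and 20.1 in R1.

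Egr1 combined strong H3K4me3 with dense H3K27me3 that was narrow for its score but not for its list. Of H3K27me3 regions within 2.5 percentile points of its score, 3.02% in CGR8 and 16% in R1 were narrower. The H3K4me3 region ran from 35018801 to 35023200 on chromosome 18 in CGR8 (4.4 kb, score 1918, percentile 85.8) and to 35023000 in R1 (4.2 kb, score 2114, percentile 88.7). The H3K27me3 region started at 35020801 in both lines and ended at 35028400 in CGR8 (7.6 kb, score 659, percentile 92.4) and at 35029600 in R1 (8.8 kb, score 537, percentile 90.2). Its score per kb was 86.7 in CGR8 and 61.1 in R1, percentile 98.7 and 94.3 of that measure and the highest of the 6 genes in both lines. The marks shared 2.4 kb in CGR8 and 2.2 kb in R1, which is 54.5% and 52.4% of the H3K4me3 region. The first 2.0 kb of the H3K4me3 region were free of H3K27me3 in both lines. Of H3K4me3 regions within 2.5 percentile points of its score, 18.5% in CGR8 and 18.2% in R1 overlapped H3K27me3. Among H3K27me3 regions of like score, 89.4% in CGR8 and 95.0% in R1 overlapped H3K4me3.

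**Figure D2:**
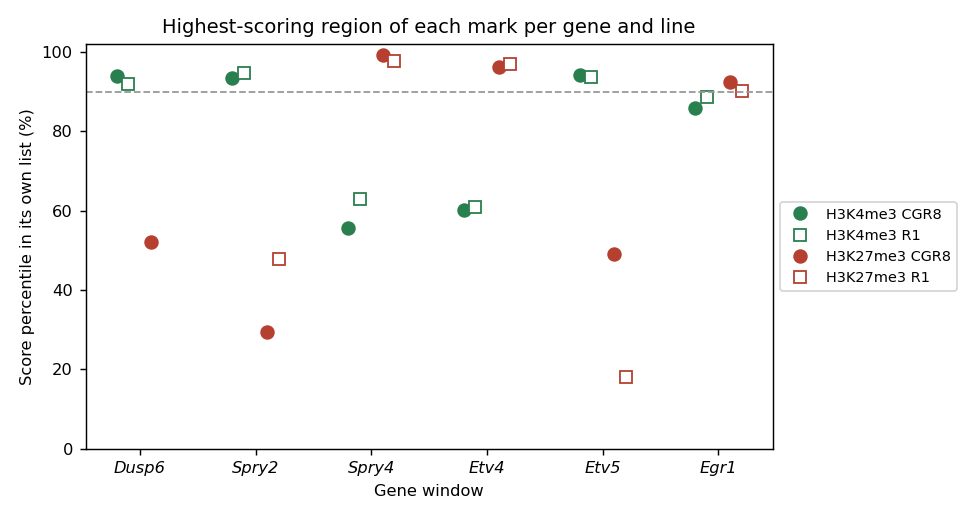
Score percentile of the highest-scoring region of each mark in each gene window (y axis, percent of the same list with a lower score) in CGR8 (filled circles) and R1 (open squares). The dashed line is percentile 90. Spry4 and Etv4 have H3K27me3 above and H3K4me3 far below it, Dusp6, Spry2 and Etv5 the reverse order, and Egr1 is near the line for both marks. Dusp6 has no R1 point for H3K27me3.

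As the plot of score percentiles shows, Egr1 stood near or above percentile 90 for both marks, and each other gene stood above it for one mark and well below it for the other. The mean percentile for H3K4me3 was 94.1 ± 0.886 at Spry2, 94.0 ± 0.387 at Etv5 and 92.9 ± 1.38 at Dusp6 (SD, n = 2 lines each). These 3 differed from each other by less than the SD of Dusp6. Egr1 followed at 87.3 ± 2.03, and Etv4 at 60.6 ± 0.418 and Spry4 at 59.3 ± 5.27 were last, with a difference smaller than the spread of Spry4. For H3K27me3 the order was Spry4 at 98.5 ± 1.1, Etv4 at 96.6 ± 0.418 and Egr1 at 91.3 ± 1.55. Spry2 at 38.6 ± 13.2 and Etv5 at 33.6 ± 21.8 came below and overlapped each other, and Dusp6 had 52.2 in CGR8 alone. For each mark 3 of 6 genes thus had a region in the top 10% of the list in both lines, against a background of 10% of regions by construction. Ranked by score per kb, 0 genes were in the top 10% for H3K4me3 in both lines and 1, Egr1, for H3K27me3. The highest-scoring region of several in a window was taken, which favours long windows such as that of Etv5.

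Widths divided the genes in the same way except for Egr1, which was among the widest for H3K4me3 and not for H3K27me3. Since the score grows with width, this is not a separate result. The widest H3K4me3 region of a gene measured 17.3 ± 1.56 kb at Etv5 (mean ± SD, n = 2 lines), 6.6 ± 0 kb at Spry2, 5.9 ± 0.141 kb at Dusp6, 4.3 ± 0.141 kb at Egr1, 3.4 ± 0.283 kb at Spry4 and 2.5 ± 0.424 kb at Etv4. The first 4 were among the widest 10% of their list in both lines, as were 9.92% of all CGR8 and 8.77% of all R1 regions, since many widths are tied. With regions under 1000 bp apart merged, Egr1 left this group, at width percentile 89.7 in CGR8 and 89.6 in R1. The median H3K4me3 region was 2.0 kb wide. For H3K27me3 the widest region measured 43.2 ± 17.0 kb at Spry4, where the R1 call was split, and 23.7 ± 0.141 kb at Etv4. These 2 were among the widest 10% in both lines, as were 9.98% of all H3K27me3 regions in each. It measured 8.2 ± 0.849 kb at Egr1, 4.8 ± 0.849 kb at Spry2, 4.5 ± 0.990 kb at Etv5 and 7.6 kb at Dusp6 in CGR8. The list medians were 7.6 kb in CGR8 and 6.4 kb in R1.

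**Figure D3:**
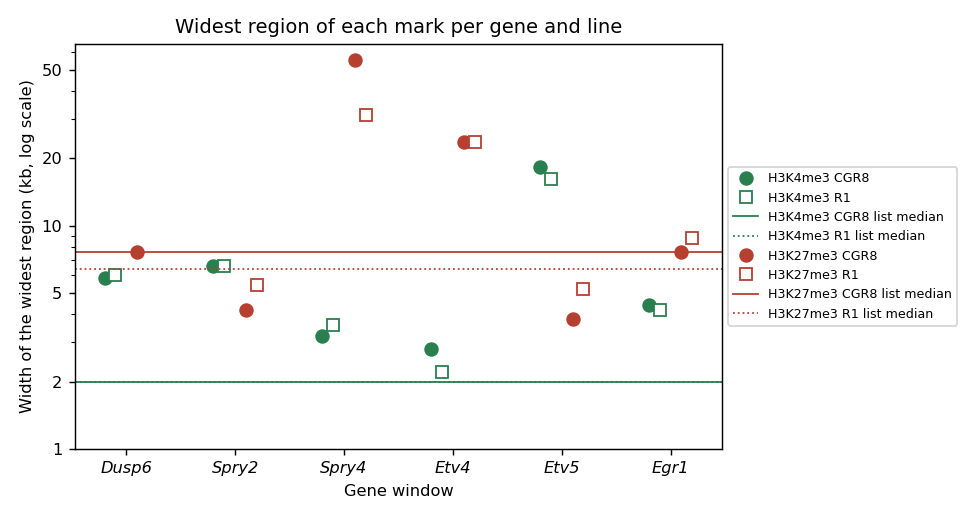
Width of the widest region of each mark in each gene window (y axis, kb on a log scale) in CGR8 (filled circles) and R1 (open squares), with the median of each list as a line. H3K4me3 at Etv5 reaches 18.4 kb and 16.2 kb, and H3K27me3 at Spry4 reaches 55.2 kb and 31.2 kb.

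The surroundings of the genes also differed in H3K27me3, in a measure that includes the regions described above. In the 200 kb around the window centre, H3K27me3 covered 94.0 kb (CGR8) and 87.8 kb (R1) at Spry4, and 32.0 kb and 30.2 kb at Etv4. At Egr1 it covered 16.4 kb and 13.4 kb, at Spry2 16.4 kb and 9.6 kb, and at Etv5 15.0 kb and 9.8 kb. At Dusp6 it covered 7.6 kb and 0 kb. Over all chromosomes up to the last called position, H3K27me3 regions covered 5.08% in CGR8 and 3.77% in R1. Spry4, with 47.0% and 43.9%, stood far above that mean and Dusp6, with 3.8% and 0%, below it. Other stretches of 200 kb were not measured, so how common such cover is was not tested. H3K4me3 cover did not follow this order. It was highest at Etv5, with 33.4 kb and 26.0 kb, and at Egr1, with 25.6 kb and 25.0 kb. At the other 4 genes it lay between 5.8 kb and 11.6 kb, and Spry4 (9.2 kb and 7.8 kb) stood above Dusp6 (7.6 kb and 6.0 kb). Over all chromosomes H3K4me3 covered 2.24% in CGR8 and 2.11% in R1. Every gene stood above that mean, the lowest being Etv4 in R1 with 2.9%.

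**Figure D4:**
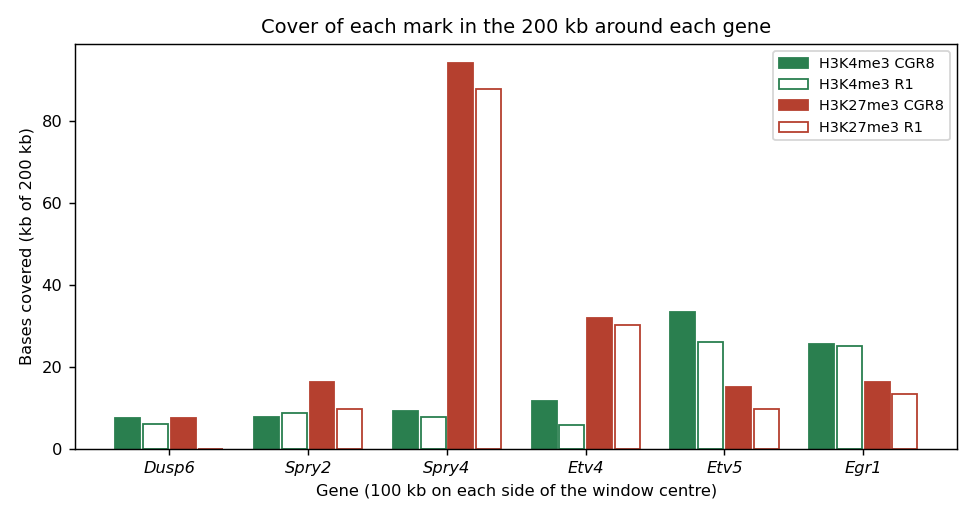
Bases covered by called regions of each mark in the 200 kb around each window centre (y axis, kb) in CGR8 (filled bars) and R1 (open bars). H3K27me3 cover is highest at Spry4, at 94.0 kb and 87.8 kb, and H3K4me3 cover at Etv5, at 33.4 kb and 26.0 kb.

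Most regions of these genes were called in both lines. All 10 H3K4me3 regions of R1 had a single partner in CGR8, and 1 of the 11 of CGR8 had none, while 89.8% of all CGR8 and 92.6% of all R1 H3K4me3 regions overlapped the other line. In 7 of the 10 pairs both ends lay within 400 bp, beside 78.4% of all pairs. The larger shift of the 2 ends had a median of 400 bp in the 10 pairs and of 200 bp over all pairs. Both strong regions of Etv5 had a shift of 1.4 kb at one end, more than 96.8% of pairs. Of the 6 H3K27me3 regions of CGR8, only that of Dusp6 lacked an R1 partner, and all 6 of R1 had one, against 67.1% and 81.1% of all H3K27me3 regions. The 4 H3K27me3 regions paired one to one, at Spry2, Etv4, Etv5 and Egr1, had larger shifts of 200 bp to 1.6 kb, beside a median of 1.6 kb over all pairs.

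Windows with both marks were common in the lists as a whole. Both marks were called in all 6 windows in CGR8 and in 5 of 6 in R1. Of 30 kb tiles of the genome that held H3K4me3, 40.1% in CGR8 and 39.4% in R1 also held H3K27me3. The windows were chosen for genes and 1 of them is 80 kb long, so the tiles are only a rough background. With the higher-scoring 50% of each list, Spry4, Etv4 and Egr1 were the 3 windows with both marks in both lines.

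No source used here gives the total reads of the libraries. The scores of the shortest regions fitted a mean of 0.740 reads per 200 bp window in CGR8 and 0.706 in R1 for H3K4me3, and of 2.11 and 1.92 for H3K27me3. CGR8 was thus 1.049 and 1.097 times as deep, and the H3K27me3 value of R1 rests on 2 regions. A region missing from a list, such as H3K27me3 near Dusp6 in R1, may have been missed at this depth, so its absence is not shown. The smallest two-sided p that 2 libraries against 2 allow in an exact permutation test that ignores the pairing by line is 0.333. Pairing by line allows none smaller, so no difference between marks was tested, and between lines each mark has 1 library a side.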

How the data were processed

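ChIP-seq of both histone marks gave 1 library for each line and mark, and groups were taken from the labels (mark as the group, CGR8 as replicate 1 and R1 as replicate 2). The authors deposited 1 list of called regions per library, each with a score that has no stated unit or formula. Per the submitters' processing notes the build was mm9 and the tools included Bowtie2 2.0.2, SICER 1.1, bedtools 2.20.1, DESeq2 1.16.1 and R 3.1.1, with no role or settings given. Not given in the sources used here are the calling threshold and any control library. Bounds lie on a 200 bp grid, so a shift of 200 bp is the smallest that can be seen.

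Positions were counted from 1. Every region overlapping a gene's window by at least 1 bp was kept, and all 6 genes were named. The genes and lists were chosen with earlier results of these data known. Ranks and percentiles were computed within each whole list, overlaps needed at least 1 bp, and regions of like score were those within 2.5 percentile points. Relative depth came from scores of regions up to 400 bp long, taken as sums over windows of −ln of the Poisson probability and matched within 1e-06 for 144 of 144 and 155 of 155 (H3K4me3) and 8 of 8 and 2 of 2 regions (H3K27me3, CGR8 and R1). No test was run. Other genes of the pathway were not analysed here, since the gene table is on GRCm38.p6, another build than that of the lists. It matched 6 of 6 genes by symbol, and gene lengths and neighbours come from it. Alternatives were the higher-scoring 50% of each list, other window sizes, merged regions, overlap of at least 50%, other rankings and leaving out either line. The overlap, distance and ranking steps were tested on simulated data. Python 3.11.15 was used with numpy 2.4.6, pandas 2.3.3, scipy 1.17.1 and matplotlib 3.10.9.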

Additional observations from a re-analysis of the deposited data

How the results depend on the processing

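Both marks were called in both lines in 5 windows, and in 3 (Spry4, Etv4 and Egr1) with the higher-scoring 50% of each list, where Spry2 and Etv5 lost their H3K27me3 regions. That setting moved the mean share of H3K4me3 regions overlapping H3K27me3 from 47.7% to 42.9%, and to 3 the genes whose strongest H3K4me3 region overlapped, since the H3K27me3 of Spry2 dropped out. Leaving out either line gave 45.5% to 50%. Ranking by score per kb in place of score, which removes the gain from width, left 0 of 3 genes in the top 10% for H3K4me3 and 1 of 3 for H3K27me3 (Egr1). Windows widened by 10 kb or narrowed by 5 kb, and merged regions, left the count of windows with both marks at 5. H3K27me3 of the other line left the overlap share at 47.7% and the genes at 4. An overlap of at least 50% could not change either value, since every overlapping region was covered by 52.4% or more. The share of all H3K4me3 regions that reach 50% was not counted. Autosomes alone left 3 genes in the top 10% for each mark. Merging regions under 1000 bp apart left 3 genes in place of 4 among the widest 10% for H3K4me3, without Egr1 (width percentile 89.7 in CGR8 and 89.6 in R1). Ranking among regions found in both lines left 2 genes in place of 3 in the top 10% for H3K27me3, with Egr1 at a mean percentile of 88.3. No paired test was run, since 2 lines are too few for one, and no result comes from a test. The titles tie both marks to a line, and overlaps were taken within the line. The reads behind each region are not known, which limits every absence to what was called.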
